A study of Mus musculus with 13 samples.

Results

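The positions of 9 genes of neural precursor cells were read from maps of pericentromere-associated domains (PADs) in 4 mouse cell types. The genes were *Pax6*, *Zic1*, *Sox9*, *Olig1*, *Olig2*, *Hes5*, *Msi1*, *Nes* and *Vim*, found by symbol in GENCODE vM1 (NCBIM37, the mm9 build). All 9 could be placed, out of 22329 protein-coding genes placed in all. Satellite 4C (sat4C) captures DNA that was ligated to the major satellite repeats of pericentromeres, which gather in the nucleus as chromocenters. A hidden semi-Markov model (HSMM) then assigned each restriction fragment end to a PAD, a stretch often close to a chromocenter, or to a non-PAD. ESCs were of the IB10 line (129/ola, 3 replicates), NPCs were derived from these ESCs (2 replicates) and ACs, astrocytes, were derived from the NPCs (2 replicates), so the cultured cell types go back to a single ESC line. Thymus tissue, a mixture of cells, came from adult male C57BL/6 mice (3 replicates, each sequenced on 2 instruments), so that strain, culture and cell type differ together between the thymus and the others. The labels name no treatment and no engineered allele.

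The calls give 1 consensus per cell type for 399232 fragment ends, combined over replicates by the authors. They hold neither reads nor calls per replicate, so depth is unknown, no SD can be given and no difference between cell types was tested. Expression was not analysed here, so the cell types could not be set against their marker RNAs. A gene was assigned to the domain that contained the midpoint of its longest transcript. Where the call switched, the border was set midway between the listed starts of the ends concerned. The NPC calls stood apart. They placed 68.0% of the sequence in PADs, compared with 48.4% to 52.5% in the other columns. They gave 53.3% of the fragment ends the same call as in the thymus, the lowest value of any pair of columns. Their agreement with ESCs (68.0%) and ACs (66.4%) was close to that of ESCs with the thymus (67.7%). ESCs with ACs reached 77.5%, and ACs with the thymus 75.7%. The paper, by contrast, describes the total coverage of PADs as not markedly different between ESCs and the other cell types. Whether the NPC column is the set of NPC calls that the study itself used could not be settled. Every NPC call here, such as those of *Nes* and *Hes5*, carries that doubt. The patterns of the 9 genes and the counts of genes that share their domains are therefore also given without NPCs.

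Neural precursor cells are the dividing cells of the neural tube and of neurogenic niches that give rise to neurons, astrocytes and oligodendrocytes. Their state is kept by Notch signalling, which switches on Hes repressors that hold back proneural genes, while patterning factors of the Pax, Zic and Olig families set regional and lineage identity. SoxE proteins such as SOX9 promote the switch to making glia. The RNA-binding protein Musashi and the filament proteins nestin and vimentin are widely used to recognise these cells.

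Calls were listed per fragment end, and nearly all listed ends start at an MfeI (CAATTG) or NlaIII (CATG) cutting site. The fragment end nearest to each midpoint is given here, because a small gene can hold few such ends or none. It is shown by the first 30 bases from its listed start (mm9, plus strand), which need not be the bases that were sequenced. This end does not set the call alone, since the HSMM assigns runs of ends. The smallest domain around any of the 9 genes had 45 ends (*Sox9* in ESCs). Capitals mark the cutting site.
Pax6, chr2:105527205-105527234, in an intron of the gene: CAATTGccaattagacatgtcagttttaag
Zic1, chr9:91252232-91252261, intergenic: CATGcagttccccctcagaatggcttacac
Sox9, chr11:112650570-112650599, intergenic: CAATTGtaccttatagccgacaaggttggt
Olig1, chr16:91274574-91274603, intergenic: CATGggatttccctagcacagcaatgtcta
Olig2, chr16:91228413-91228442, in a UTR of the gene: CAATTGgtttcttacccgactggggacgct
Hes5, chr4:154338907-154338936, in an intron of the neighbor Pank4: CATGcccactaacaagtcctcgggggaggt
Msi1, chr5:115888958-115888987, in an intron of the gene: CAATTGcagaggagccgaggacaccccccg
Nes, chr3:87780900-87780929, in a coding exon of the gene: CAATTGtactgctagaaagcaagaaccaga
Vim, chr2:13497409-13497438, in an intron of the gene: CATGaaggctttattttctgcttcgtttcc
These ends lay between 1.02 kb (*Pax6*) and 4.52 kb (*Zic1*) from the midpoints. *Pax6* contained 5 fragment ends, *Msi1* 2, and *Nes*, *Vim* and *Olig2* 1 each. No end began inside *Olig1*, *Hes5*, *Zic1* or *Sox9*, whose status is that of the stretch between flanking ends.

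In each cell type some of the genes lay in PADs and others in non-PADs. PADs held 3 of the 9 in ESCs, where they held 46.5% of all protein-coding genes, and 6 of 9 in NPCs, where they held 68.5%. In ACs PADs held 4 of 9, with 34.9% of all genes, and in the thymus 4 of 9, with 26.1%. The count was thus below the share of all genes in ESCs, near it in NPCs and above it in ACs and thymus, and with 9 genes this is a description only. *Pax6*, *Zic1* and *Vim* were in PADs in all 4 cell types, a pattern of 14.8% of all genes. *Olig1*, *Olig2* and *Msi1* were in non-PADs in all 4, as were 20.1% of all genes. *Olig1* and *Olig2* shared a domain in every column, yet all counts of the 9 genes take them separately. *Nes* and *Hes5* were in PADs in NPCs only, which was the most frequent of 16 patterns and held 23.9% of all genes. *Sox9* alone was in a non-PAD in ESCs and in PADs in the 3 other cell types, a pattern of 281 genes (1.26%). The call was the same in all 4 columns for 6 of 9 genes (34.8% of all genes) and, with NPCs left out, for 8 of 9 (61.2%). In the remaining columns *Pax6*, *Zic1* and *Vim* were always in PADs (17.2% of all genes), *Olig1*, *Olig2*, *Msi1*, *Nes* and *Hes5* always in non-PADs (44.0%), and *Sox9* kept its change between ESCs and the others (2.17%). No border crossed the longest transcript of any of the 9 genes in any cell type, where borders crossed 3.7% of all genes in ESCs and 3.07% in NPCs, with 2.86% in ACs and 2.35% in the thymus.

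**Figure D1:**
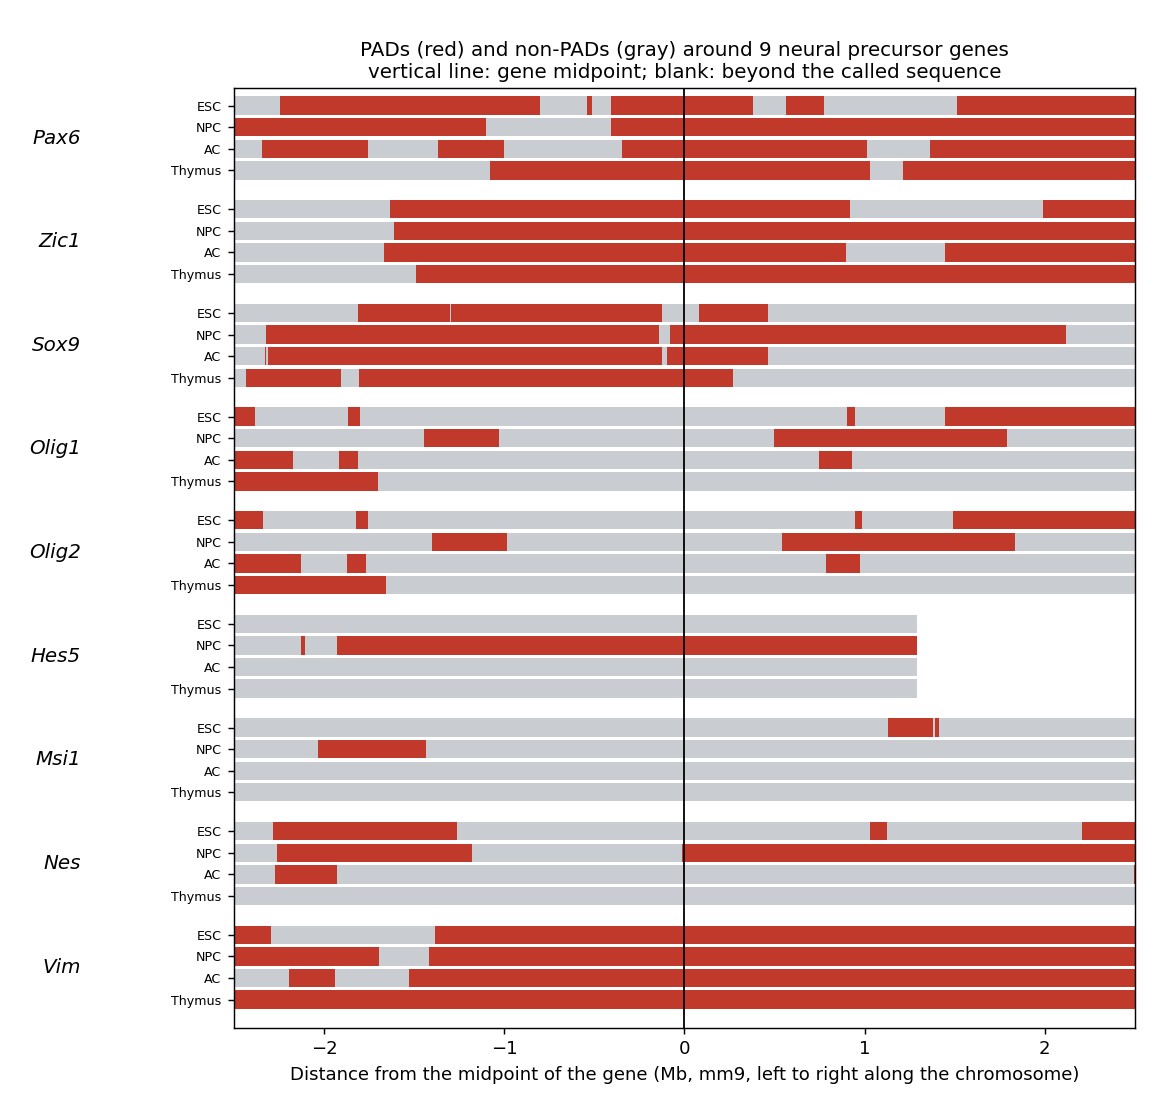
PADs (red) and non-PADs (gray) within 2.5 Mb of the midpoint of each gene (x axis, Mb) in ESCs, NPCs, ACs and thymus (rows). *Zic1*, *Vim* and *Pax6* lie in red in all 4 rows, *Olig1*, *Olig2* and *Msi1* in gray in all 4, and the *Nes* midpoint lies 13.0 kb inside an NPC PAD.

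*Pax6* (ENSMUSG00000027168.12, Chromosome 2, 105509053 to 105543317) encodes a paired-box and homeodomain transcription factor of the developing eye and forebrain. Its PAD measured 0.786 Mb in ESCs, 5.31 Mb in NPCs, 1.36 Mb in ACs and 2.11 Mb in the thymus. The ESC PAD was thus the smallest of the 4, and the NPC PAD the largest. The distance from the midpoint to the nearest border was 378 kb in ESCs, 408 kb in NPCs, 349 kb in ACs and 1029 kb in the thymus. The left border was the same in ESCs and NPCs (105117810) and lay 59.0 kb farther right in ACs. On the right, ACs and thymus ended 14.7 kb apart (106540598 and 106555286), whereas the ESC PAD ended earlier, at 105903998. Within 500 kb of *Pax6* the PAD share of the 178 fragment ends was 82.0% in ESCs, 94.4% in NPCs, 88.2% in ACs, and every end was PAD in the thymus. The neighbors on either side, *Rcn1* and the Elongator subunit gene *Elp4*, whose annotated extent overlaps the end of *Pax6*, shared the *Pax6* domain in all 4 columns, as did *Immp1l*. In all, 4 other genes did so, with or without NPCs.

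*Zic1* (ENSMUSG00000032368.8, Chromosome 9, 91252896 to 91260648) encodes a zinc finger factor of the dorsal neural tube and cerebellum. It lay in PADs of 2.56 Mb in ESCs, 4.51 Mb in NPCs, 2.56 Mb in ACs and 4.76 Mb in the thymus. ESCs and ACs therefore had nearly the same PAD, with left borders 31.6 kb and right borders 25.4 kb apart, and NPCs and thymus had a longer one. The left borders of all 4 columns fell within 177 kb of each other (89590123 in ACs to 89767191 in the thymus). *Zic1* was well inside, at 920 kb from the nearest border in ESCs, 1610 kb in NPCs, 895 kb in ACs and 1490 kb in the thymus. *Zic4*, the divergent neighbor of the same family, had its midpoint 16.5 kb away and shared all 4 domains. On the other side the nearest protein-coding gene, *Tbc1d2b*, was 1126 kb away. The *Zic1* PAD was poor in genes, with 9 in ESCs, 12 in NPCs, 9 in ACs, and 13 for thymus tissue. Besides *Zic1*, 6 genes were in it in every column, with or without NPCs.

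*Sox9* (ENSMUSG00000000567.4, Chromosome 11, 112643538 to 112649074), a SoxE factor of neural stem cells and glia and of cartilage, lay within 268 kb of a border in every cell type. In ESCs it was in a non-PAD of 206 kb (112523601 to 112729534, 45 fragment ends) between PADs of 1.17 Mb and 382 kb. Only 2.07% of protein-coding genes in ESC non-PADs were in a smaller one, and *Sox9* was the only protein-coding gene in it. In NPCs the gene was in a PAD of 2.20 Mb, in ACs in a PAD of 0.561 Mb and in the thymus in a PAD of 2.08 Mb. The nearest border was 83.2 kb away in ESCs, 82.2 kb in NPCs, 95.3 kb in ACs and 268 kb in the thymus. In the 3 cultured cell types that border bounded a small non-PAD.

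The call of *Sox9* changed around a stretch that stayed outside PADs in the cultured cell types. To the left of the gene NPCs had a non-PAD of 59.5 kb with 12 fragment ends (112504638 to 112564116), and ACs had one of 27.4 kb with 4 fragment ends (112523601 to 112551037), which began at the same border as the ESC non-PAD. The AC stretch lay wholly within those of ESCs and NPCs, from 123 to 95.3 kb left of the *Sox9* midpoint, and overlapped *BC006965*, annotated as a lincRNA. In the thymus the same sequence was PAD. The ends on either side of the left ESC border show the spacing of ends there. How precisely the border is known cannot be read from them, because calls per replicate are lacking. The paper states that differences between cells hinder an exact placing of PAD borders. Capitals again mark the cutting site.
Last end called PAD, chr11:112518778-112518807, intergenic: CAATTGtgtggtttgtctctgcttaggcag
First end called non-PAD, chr11:112528424-112528453, in an intron of BC006965: CATGgtctgatacattcctcagctctcctg
Because the AC stretch has 4 ends, absorbing runs under 5 fragment ends removed it. The AC PAD of *Sox9* then measured 2.78 Mb instead of 0.561 Mb, and its nearest border was 465 kb away. The calls of *Sox9* did not change. Within 100 kb of the gene 6.67% of the 45 fragment ends were PAD in ESCs, 88.9% in NPCs, 97.8% in ACs, and all were PAD in the thymus. The contrast was smaller farther out. Within 1000 kb the PAD share of 386 ends was 73.3% in ESCs, 96.9% in NPCs, 84.2% in ACs, and 75.6% for thymus tissue. No other protein-coding gene shared the domain of *Sox9* in every column, with or without NPCs. The nearest ones, *Gm11678* and *Slc39a11*, were 354 kb to the left and 620 kb to the right.

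*Olig2* and *Olig1* (ENSMUSG00000039830.8 and ENSMUSG00000046160.5, Chromosome 16, 91225795 to 91228922 and 91270014 to 91272184) encode basic helix-loop-helix factors of motor neuron and oligodendrocyte precursors. Their midpoints were 43.7 kb apart and shared a non-PAD in every cell type. They are thus 1 locus, although the counts of the 9 genes take them separately. This non-PAD measured 2.70 Mb in ESCs, 1.53 Mb in NPCs, 2.55 Mb in ACs and 8.72 Mb in the thymus, where it ran to the end of the called sequence. It was smallest in NPCs and largest in the thymus. From *Olig1* the nearest border was 904 kb away in ESCs, 498 kb in NPCs, 744 kb in ACs and 1702 kb in the thymus. From *Olig2* it was 948 kb away in ESCs, 541 kb in NPCs, 788 kb in ACs and 1658 kb in the thymus. The left borders of ESCs and ACs were 10.7 kb apart (89472708 and 89462027). Between 24 (NPCs) and 78 (thymus) protein-coding genes had their midpoint in this non-PAD, and 23 of them, besides the gene itself, shared it in all 4 columns (28 without NPCs). Within 250 kb of either gene no fragment end was PAD in any column. Within 500 kb this held for the 140 ends around *Olig2*, whereas 1 of 142 ends around *Olig1* was PAD in NPCs. Within 1000 kb of *Olig1* 2.96% of 270 ends were PAD in ESCs, 27.0% in NPCs and 8.89% in ACs, and none in the thymus. The next gene on the right, the interferon receptor gene *Ifnar2*, was also in non-PADs throughout.

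*Hes5* (ENSMUSG00000048001.7, Chromosome 4, 154335032 to 154336480), a repressor switched on by Notch, lay 1.29 Mb from the end of the called sequence of its chromosome. Its domain reached that end in all 4 columns. It was a non-PAD of 6.71 Mb in ESCs, 8.60 Mb in ACs and 8.43 Mb in the thymus and a PAD of 3.22 Mb (372 fragment ends) in NPCs. The change in NPCs thus took in a long stretch, in which all 207 fragment ends within 1 Mb of *Hes5* were PAD and in which 70 other protein-coding genes had their midpoint. Those 70 shared its domain in all 4 columns, and 111 did without NPCs. The nearest border was 5413 kb away in ESCs, 1927 kb in NPCs, 7308 kb in ACs and 7133 kb in the thymus. In ESC non-PADs 99.4% of genes were closer to a border. The end of the called sequence was not counted as a border. The 3 nearest genes that shared its domain in all 4 columns were *Pank4*, *Tnfrsf14* and *Plch2*.

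*Msi1* (ENSMUSG00000054256.5, Chromosome 5, 115879608 to 115905707) encodes Musashi, an RNA-binding protein that represses translation of the Notch antagonist *Numb*. Its non-PAD was the largest of the list in NPCs, ACs and thymus but not in ESCs, where that of *Hes5* was larger. It measured 5.44 Mb in ESCs, 8.09 Mb in NPCs, 15.8 Mb in ACs and 15.5 Mb in the thymus. The AC and thymus non-PADs had nearly the same limits (110891865 to 126656595 and 111112827 to 126643766) and held 239 and 236 protein-coding genes. Besides *Msi1*, 57 genes shared its domain in all 4 columns, and 89 did without NPCs. No fragment end of 202 within 1 Mb of *Msi1* was PAD in any cell type. The nearest border was 1132 kb away in ESCs, 1434 kb in NPCs, 5001 kb in ACs and 4780 kb in the thymus.

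*Nes* (ENSMUSG00000004891.10, Chromosome 3, 87775000 to 87784373) encodes nestin, the intermediate filament by which neural stem cells are commonly recognised. It lay in non-PADs of 2.29 Mb in ESCs, 4.42 Mb in ACs and 7.41 Mb in the thymus, at 1027, 1928 and 2806 kb from the nearest border. In NPCs it was at the left edge of a PAD of 4.92 Mb (87766736 to 92688587, 541 fragment ends, 147 protein-coding genes), with the midpoint 13.0 kb from the border. Only 1.28% of the genes in NPC PADs were closer to a border. This was the only one of the 36 nearest borders where the midpoint of the gene fell between the flanking ends, here 28.3 kb apart. The right one is the exonic end printed above for *Nes*, the first called PAD, and the left one the last called non-PAD.
Left of the Nes border, chr3:87752573-87752602, intergenic: CATGcaccagctgggtataaaagcctagag
The midpoint lay 1.21 kb left of the exonic end. With domains closed at their outer fragment ends, *Nes* was in no NPC domain and 5 of 9 genes instead of 6 were in NPC PADs. Around the gene the NPC calls were mixed at every scale, with PAD calls at 8 of 16 fragment ends within 100 kb, 48.1% of 108 within 500 kb and 42.9% of 219 within 1000 kb. In ESCs, ACs and thymus no end within 1000 kb of *Nes* was PAD. Besides *Nes*, 37 protein-coding genes shared its domain in all 4 columns, and 59 did without NPCs. The neighbors lay on different sides of the NPC border. *Bcan*, which encodes the brain matrix proteoglycan brevican and lies 18.2 kb to the right, was in a PAD in NPCs only, whereas *Crabp2*, 24.8 kb to the left, was in non-PADs in all 4 cell types.

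*Vim* (ENSMUSG00000026728.3, Chromosome 2, 13495554 to 13504453) encodes vimentin, the filament protein that pairs with nestin in radial glia and is also found in many mesenchymal cells. Its PADs were the largest of the list, at 13.1 Mb in ESCs, 8.04 Mb in NPCs, 7.41 Mb in ACs and 8.22 Mb in the thymus. *Vim* was 1387 kb from the nearest border in ESCs, 1416 kb in NPCs, 1531 kb in ACs and 2812 kb in the thymus. In ESCs, 94.8% of genes in PADs were in a smaller PAD. All 375 fragment ends within 1 Mb of *Vim* were PAD in all 4 columns. The left borders of ESCs and NPCs were 28.9 kb apart, and the right borders 5069 kb. The PAD held 91 protein-coding genes in ESCs, 37 in NPCs, 35 in ACs, and 40 for thymus tissue, of which 30 besides *Vim* were in it in every column, with or without NPCs, the nearest being *Gm9875*, *Trdmt1* and *St8sia6*. The filament genes of the list thus lay apart in ESCs, ACs and thymus, with *Vim* deep in a PAD and *Nes* in a non-PAD.

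**Figure D2:**
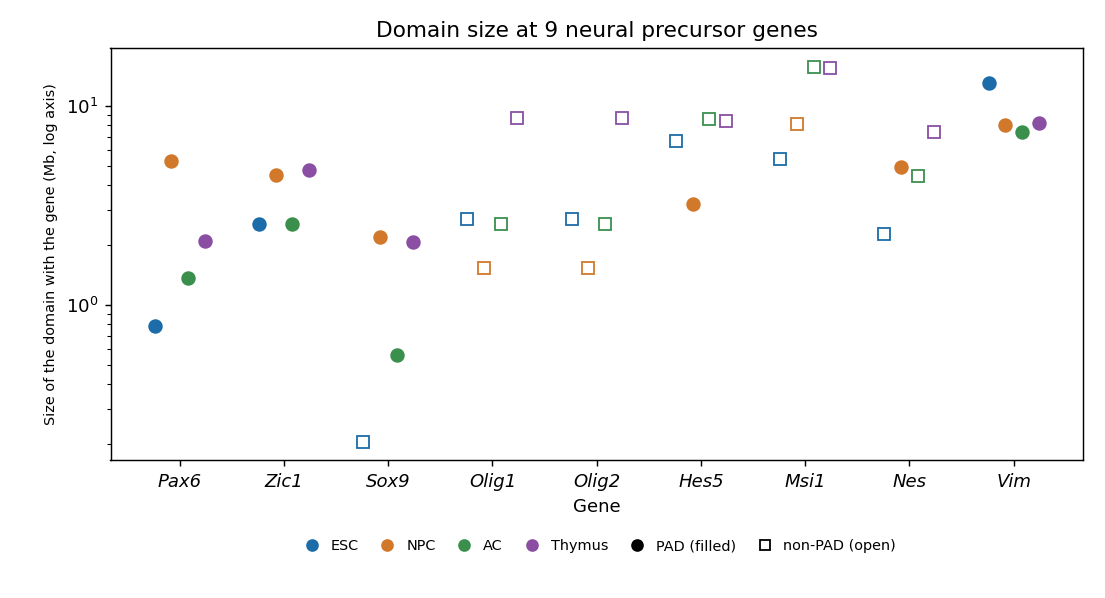
Size of the domain that contains each gene (y axis, Mb, log scale) in ESCs, NPCs, ACs and thymus (colors), with filled circles for PADs and open squares for non-PADs. Sizes run from 0.206 Mb for *Sox9* in ESCs to 15.8 Mb for *Msi1* in ACs.

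**Figure D3:**
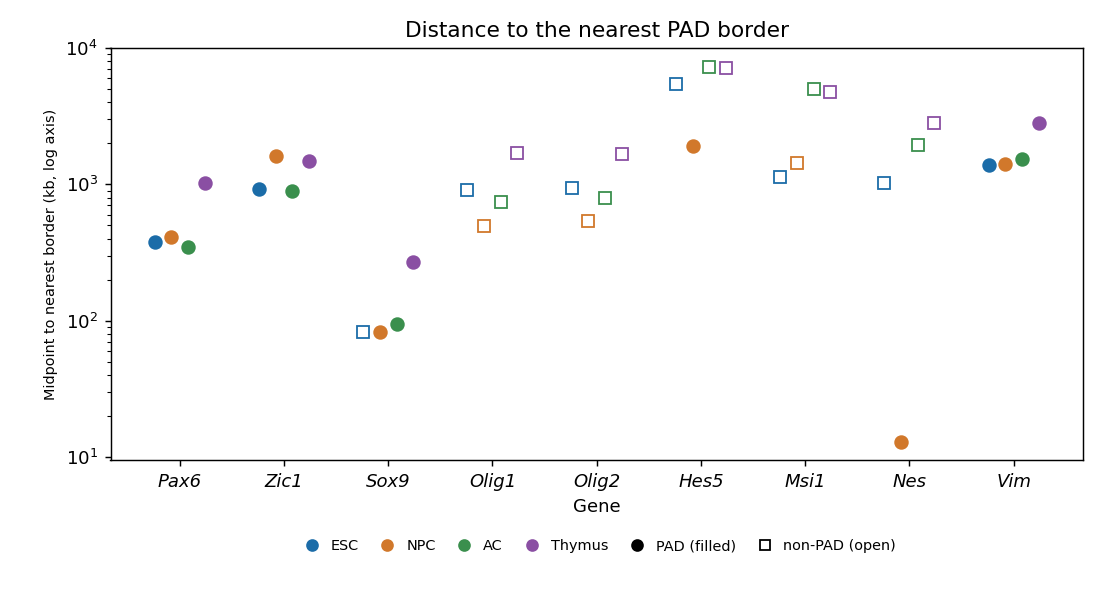
Distance from the midpoint of each gene to the nearest border (y axis, kb, log scale), with colors and symbols for cell type and call. *Nes* in NPCs, at 13.0 kb, is the lowest value, *Sox9* is at or below 268 kb in all 4 columns, and *Hes5* in ACs is the highest at 7308 kb.

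The thymus domains of the 9 genes had a median size of 8.22 Mb, where the median over all protein-coding genes was 4.77 Mb, and the median distance to a border was 1.70 Mb, against 0.982 Mb. In ESCs the median domain was 2.70 Mb, against 2.47 Mb over all genes, and in ACs it was 2.56 Mb, against 3.32 Mb. In NPCs it was 4.51 Mb, against 2.86 Mb. The median border distance was 0.948 Mb in ESCs, against 0.477 Mb over all genes, 0.541 Mb in NPCs, against 0.618 Mb, and 0.895 Mb in ACs, against 0.683 Mb. With PADs and non-PADs pooled, size was thus below the median of all genes in ACs and distance in NPCs, and the other medians were above it. Compared with genes of the same call, the median distance was above that of all genes in every column. In NPCs it was 0.912 Mb against 0.744 Mb in PADs and 0.541 Mb against 0.387 Mb in non-PADs. Size in ACs was 1.96 Mb against 2.52 Mb in PADs but 4.42 Mb against 3.87 Mb in non-PADs. Size was also lower in NPC non-PADs (1.53 Mb against 1.96 Mb). No test was made of these medians, to which *Olig1* and *Olig2* each contribute although they share a domain.

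The genes also differed in their surroundings. GC content in the 100 kb around the midpoint was lowest at *Vim* (40.4%), *Zic1* (42.2%) and *Pax6* (44.0%), the 3 genes in PADs throughout. It was 46.8% at *Sox9*, 47.8% at *Olig1*, 47.9% at *Olig2* and 49.4% at *Msi1*. *Nes* (51.0%) and *Hes5* (53.1%), the genes in PADs in NPCs only, had the highest values. The same order was seen among all genes, where the median was 39.9% for genes in PADs in all 4 columns, 46.1% for non-PADs in all 4 and 47.4% for PADs in NPCs only. Each of the 9 genes was above the median GC content of its own pattern. *Sox9* was also above the upper quartile of its pattern (median 39.3%, quartiles 37.9% and 40.9%). So were *Pax6* and *Zic1* (upper quartile 41.6%), *Msi1* (48.9%) and *Nes* and *Hes5* (49.8%), whereas *Vim*, *Olig1* and *Olig2* were below theirs.

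Fragment ends were frequent around *Sox9* (211 within 500 kb), *Vim* (196), *Zic1* (192) and *Pax6* (178) and sparser around *Msi1* (107), *Nes* (108) and *Hes5* (108), where the median over all genes was 134. A call around *Sox9* thus rested on more sites per megabase than one around *Nes*. Neighboring genes showed the opposite. Within 500 kb *Zic1* and *Sox9* had 1 other protein-coding gene each, *Pax6* 5 and *Vim* 6, while *Nes* had 36, *Msi1* 25, *Olig2* 19 and *Olig1* and *Hes5* 18 each, with a median of 15 over all genes. GC content, fragment ends and gene density move together with the calls, and their part in them was not tested.

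**Figure D4:**
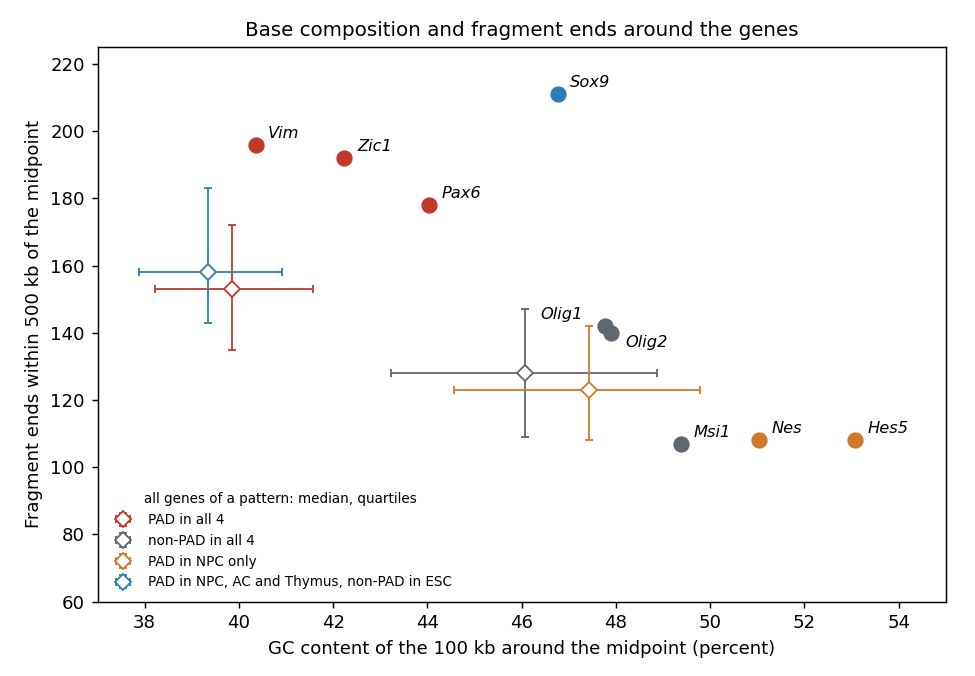
GC content of the 100 kb around each gene (x axis, percent) and number of fragment ends within 500 kb (y axis), colored by the pattern of calls. Diamonds with bars are the median and quartiles of all protein-coding genes of that pattern. *Vim*, *Zic1* and *Pax6* lie at 40.4% to 44.0% GC, and *Nes* and *Hes5* at 51.0% and 53.1%.

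Relatives of the 9 genes were followed by family. Beside their counts stand the shares of all genes in PADs, 46.5% in ESCs, 68.5% in NPCs, 34.9% in ACs and 26.1% for thymus tissue. Of the 9 *Pax* genes, PADs held 6 (66.7%) in ESCs and 8 (88.9%) in NPCs, and 5 (55.6%) each in ACs and thymus. *Pax1*, *Pax3* and *Pax9* were in PADs in all 4 cell types like *Pax6*, while the kidney and midbrain factor gene *Pax2* was in non-PADs in all 4 and *Pax5* and *Pax7* were in PADs in NPCs only. Among the *Zic* genes, *Zic2* and *Zic5* form another closely spaced pair, 16.4 kb apart, and shared their domain in each column. This pair was in PADs in ESCs and NPCs and in non-PADs in ACs and thymus, a pattern of 12.2% of all genes.

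The 2 other SoxE genes, *Sox8* and *Sox10*, were in non-PADs in all 4 cell types, so that *Sox9* was the only one of the 3 in a PAD anywhere. *Olig3* was in a PAD of 0.356 Mb in ACs and in non-PADs elsewhere, in ESCs in one of 0.136 Mb. *Msi2* was in non-PADs in all 4 columns like *Msi1*. Of 10 genes for type III and IV intermediate filaments, *Nes* and *Vim* included, 3 were in PADs in ESCs and 4 in NPCs, and *Vim* alone was in ACs and thymus, in each column a smaller share than that of all genes. The astrocyte filament gene *Gfap* and the muscle gene *Des* were in PADs in NPCs only, like *Nes*. The neurofilament genes *Nefl* and *Nefm*, 17.2 kb apart, were both crossed by a border in ESCs, and *Nefm* was placed in a PAD there.

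Notch pathway genes were mostly in PADs in NPCs and in non-PADs in the thymus, as were most protein-coding genes. Of 26 genes, *Hes5* included, PADs held 13 in ESCs and 21 in NPCs, with 6 in ACs and 2 in the thymus (*Hey2* and *Maml2*, the latter named after its value was seen). The receptor genes *Notch1*, *Notch2* and *Notch4* were in PADs in NPCs only, the most frequent pattern (23.9% of all genes), and *Notch3* in ESCs and NPCs. *Notch2* was crossed by a border in NPCs, so its call there depends on the placement. Among ligand genes *Dll1* and *Jag1* were in PADs in the 3 cultured cell types (11.1% of all genes). *Dll3* and *Jag2* were in PADs in ESCs and NPCs (12.2%), and *Dll4* in none (20.1%). All 9 *Hes* and *Hey* genes were in PADs in NPCs, where PADs held 68.5% of all genes. Of the 9, *Hes2*, *Hes3*, *Hes5*, *Hes6* and *Hey1* were in PADs there only, like 23.9% of all genes. *Hes2* and *Hes3* lay 2.80 and 2.67 Mb from *Hes5*. They shared its non-PAD in ESCs, ACs and thymus but were in another PAD in NPCs, of 0.671 Mb. *Hey2* had the pattern of *Sox9*, non-PAD in ESCs and PAD in the 3 other cell types. The NPC counts lean on the calls that stood apart. Without NPCs, PADs of ESCs, ACs and thymus held 3, 1 and 1 of the 9 *Hes* and *Hey* genes (33.3%, 11.1% and 11.1%). They held 46.5%, 34.9% and 26.1% of all genes.

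Of 51 transcription factor genes of neural progenitors, 10 of them already among the families above, 50 were placed (*Sox1* was not found under this symbol). PADs held 18 in ESCs and 27 in NPCs, with 14 in ACs and 11 in the thymus. The 4 shares in PADs were all below those of all protein-coding genes, a difference that was not tested. Of the 50, 19 were in non-PADs in all 4 cell types, 9 in PADs in all 4 and 10 in PADs in NPCs only. Of all genes, 20.1%, 14.8% and 23.9% had these patterns. Without NPCs, 29 of the 50 were in non-PADs and 9 in PADs in all 3 remaining columns, compared with 44.0% and 17.2% of all genes. Astrocyte markers, a list of 15 that shares *Sox9* with the present one, were in PADs for 7, 11, 3 and 2 genes in ESCs, NPCs, ACs and thymus, 20 pluripotency genes for 10, 12, 3 and 6, and 11 thymocyte markers for 4, 6, 3 and 3. All genes stood at 46.5%, 68.5%, 34.9% and 26.1% in the same order.

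**Figure D5:**
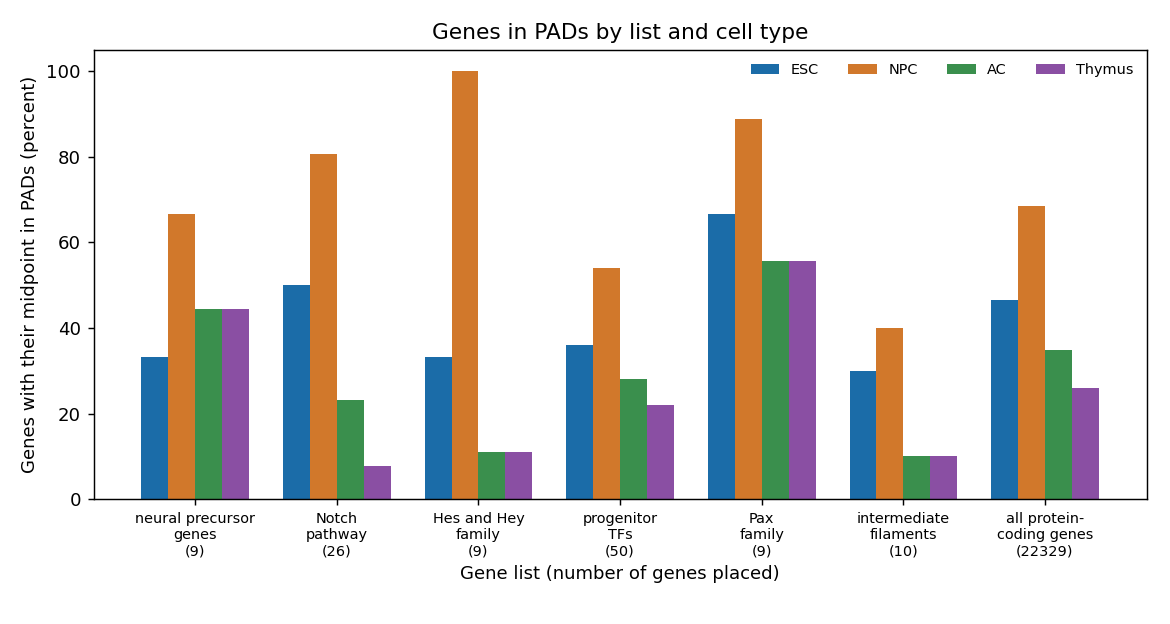
Share of genes with their midpoint in PADs (y axis, percent) for each gene list (x axis, number of genes placed) in ESCs, NPCs, ACs and thymus (bars). The 9 neural precursor genes lie at 33.3%, 66.7%, 44.4% and 44.4%, and all protein-coding genes at 46.5%, 68.5%, 34.9% and 26.1%.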

How the data were processed

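Sat4C reads of 13 samples were mapped by the authors to restriction fragment ends of mm9, leaving out Y (aligner not given in the sources used here), sorted into read classes and fitted per replicate with an HSMM in the mhsmm package. The majority call over replicates was kept, and ties were settled by the pooled reads. The deposited table gives a word call (PAD or nPAD) at 399232 ends in 4 columns, 1 per cell type, and 0 columns per replicate, so smoothing by the HSMM and the vote cannot be undone and the depth is unknown.

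Of the ends, 97.8% started on an MfeI or NlaIII site in NCBIM37. Of 22380 protein-coding genes in GENCODE vM1, 22329 lay in the called sequence. Domains were runs of equal calls. Each gene got its call, domain size, distance to the nearest border and percentile among genes of the same call. All 9 genes are named, with the nearest genes and those that share all 4 domains (nearest 3), and relatives by family. *Gsx2* had several entries, of which the longest was used. The genes and lists were chosen with earlier results of these data known. No tests were made, since each cell type has 1 column. Placements, run lengths and borders were varied. Patterns and shared domains without NPCs were added after seeing the data. Python 3.11.15, numpy 2.4.6 and pandas 2.3.3 were used, and the code was tested on simulated domains.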

Additional observations from a re-analysis of the deposited data

How the results depend on the processing

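The number of the 9 genes in PADs was 3, 6, 4 and 4 in ESCs, NPCs, ACs and thymus with genes placed by transcription start site, any overlap, whole extent or nearest fragment end, with runs under 5 fragment ends or domains of 1 fragment end absorbed, and with gaps over 100 kb left out. With borders at the outer fragment ends it was 5 in NPCs (*Nes* in no domain) and unchanged elsewhere. By transcription start site, *Nes* lay 0.00828 Mb from its NPC border. Absorbing runs under 5 fragment ends moved the AC domain of *Sox9* to 2.78 Mb and its border distance to 0.465 Mb. No other size or distance moved by over 1.5 times under these alternatives, and with borders at the outer fragment ends those of *Nes* in NPCs have no value. The share of all genes in PADs by any overlap was 48.4%, 70.0%, 36.3% and 27.1%, and over all gene types 48.4%, 67.4%, 38.5% and 30.5%. With NPCs left out, 8 of 9 genes instead of 6 had a single call, and 61.2% of all genes instead of 34.8%. Leaving out a replicate was not possible. No paired analysis was possible because the columns are consensus calls without replicates.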
